A study of Rattus norvegicus with 31 samples.

Results

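A set of 10 genes that kidney tubules are known to switch on during injury and repair was followed in rat (Rattus norvegicus) kidney cortex, with colon as a contrast: Havcr1, Lcn2, Krt8, Krt18, Vcam1, Spp1, Clu, Lgals3, Sox9 and Itgb6. They were chosen by gene symbol, and all 10 were present among the 20207 symbols of the deposited count table. The rats were in 3 groups: a high salt diet supplemented with calcitriol, the active hormonal form of vitamin D (CAL), the high salt model without it (HS), and normal controls (NC). High salt was common to CAL and HS, and the labels describe no group given calcitriol on a normal diet. The cortex had 6 CAL, 4 HS and 5 NC libraries and the colon 6 CAL, 5 HS and 5 NC libraries, 31 in all. Strain, sex, age, salt content, calcitriol dose and duration were not used here, and the labels do not say whether each library came from a separate animal, so each p measures only the spread between these samples. The cortex libraries held 289529 to 2265164 counts each, and the colon libraries 267976 to 918820. Levels are given as CPM, counts per 1e6 counts after trimmed-mean (TMM) scaling within a tissue, as mean ± SD. Differences were tested with the edgeR quasi-likelihood test over all genes that passed a filter on low counts, and the threshold was a Benjamini-Hochberg adjusted p of 0.05. The libraries matched their tissue labels. A list of 20 proximal tubule markers summed to between 35655 and 47092 CPM in cortex and between 571 and 2319 CPM in colon.

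An injured proximal tubule cell loses part of its transport machinery, spreads, and expresses proteins that it makes little of at rest. Some of these are shed or secreted and can be measured in urine, others remodel the cytoskeleton and the contacts with matrix and leukocytes, and the transcription factor Sox9 marks cells that divide or repair. Several of the 10 are also made at rest, by other nephron segments, by leukocytes or by colon epithelium. In bulk tissue, fewer cells of a type and less RNA per cell cannot be told apart.

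No tested member of the injury set rose past the threshold in the high-salt cortex. Of the 10 genes, 6 passed the filter in cortex (Krt8, Spp1, Clu, Lgals3, Sox9 and Itgb6), and between HS and NC 1 of them passed the test: Krt8 fell. Among all 7524 cortex genes tested, 11% passed, 7.35% higher and 3.69% lower in HS. With 6 members tested, 0 higher and 1 lower do not set the members apart from those shares. The 6 log2 fold changes of HS over NC had a median of -0.37, against -0.01 over all tested genes, and 1 of the 6 was positive. Between CAL and HS no member passed, where 0.758% of all genes did, and the median was 0.24 against -0.01. Between CAL and NC no member passed and neither did any other gene (0%). At an unadjusted p under 0.05 the CAL and NC comparison held 892 genes, and DESeq2 called 23 genes. The comparisons of HS with NC and of CAL with HS share the 4 HS libraries, so a value that is low in those libraries enters them with opposite signs.

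Havcr1 and Lcn2, which encode the shed receptor KIM-1 and the secreted iron-siderophore carrier NGAL, both urinary markers of tubule injury, were close to undetected in every cortex library. Havcr1 had 0 to 3 reads per library in CAL with a median of 1.5, against 2, 2, 2 and 0 reads in HS and 1, 3, 1, 0 and 2 reads in NC. No library of any group rose above 3 reads. Summed over libraries, CAL had 10 of 5363920 reads, or 1.86 plain CPM with an exact Poisson 95% interval of 0.894 to 3.43. HS had 6 of 2296341 reads, or 2.61 CPM (0.959 to 5.69), and NC had 7 of 3674289 reads, or 1.91 CPM (0.766 to 3.93). The 3 intervals overlapped and cover counting error only. Replicate 4 of each group had no Havcr1 read, and a count of 0 allows up to 4.43 CPM in that CAL library, 3.53 CPM in the HS library and 5.84 CPM in the NC library, taking 3 counts as the limit.

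Lcn2 had 0 to 13 reads in CAL with a median of 2, against 0, 5, 2 and 1 reads in HS and 5, 2, 4, 1 and 4 reads in NC. The 13 reads came from CAL replicate 1, the deepest library of the series. Relative to depth each group lay inside the intervals of the others: Lcn2 summed to 3.73 plain CPM in CAL (95% interval 2.28 to 5.76), 3.48 CPM in HS (1.504 to 6.86) and 4.35 CPM in NC (2.49 to 7.07). No difference in Havcr1 or Lcn2 between the groups was detected at this depth. Without the filter, the log2 fold change of HS over NC was 0.54 for Havcr1 (SE 0.91, 95% interval -1.26 to 2.34, edgeR adjusted p = 0.822). For Lcn2 it was -0.36 (SE 0.75, 95% interval -1.85 to 1.14, adjusted p = 0.877). Lcn2 is also made by neutrophils, whose 11 markers summed to between 1.77 and 11.9 CPM in CAL, 3.05 and 14.0 CPM in HS, and 5.91 and 15.6 CPM in NC, with Mpo, Ngp, Elane and Np4 at 0 in all 3 groups.

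Krt8 and Krt18 encode the type II and type I keratins that pair into the intermediate filaments of simple epithelia, and in kidney both are known to increase in stressed tubule cells. Krt8 was the member that changed. Its level was 180 to 249 CPM in CAL with a median of 239 CPM, against 206, 148, 193 and 165 CPM in HS and 240, 206, 232, 264 and 255 CPM in NC. All 4 HS libraries lay below all 5 NC libraries, although the highest HS value (206.1 CPM) and the lowest NC value (206.4 CPM) nearly touched, while the CAL libraries spanned both. Krt8 averaged 178 ± 26.4 CPM in HS (n = 4) and 239.5 ± 22.4 CPM in NC (n = 5). It fell by 0.44 on the log2 scale (SE 0.14, 95% interval -0.73 to -0.15, edgeR adjusted p = 0.0453), which is 1.36-fold lower in HS. Of all tested genes, 5.64% had every HS library below every NC library.

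The call for Krt8 sits at the edge of the threshold. It was lost in 9 of the 15 fits that left out 1 cortex library, with adjusted p up to 0.188 without HS replicate 2, and also with no filter on low counts (0.0730), a filter of 1 CPM in 4 libraries (0.0609) and all libraries thinned to the shallowest (0.0535). The direction was the same in every one of these fits. Erythrocyte markers moved with the same groups: their 7 genes summed to between 3613 and 6958 CPM in CAL, 1039 and 1915 CPM in HS, and 3932 and 20347 CPM in NC, and 6 of the 7 (Hba-a1, Hba-a2, Hbb, Alas2, Hba-a3 and Hbb-bs) were lower in HS than in NC past the threshold. Of 13 tested markers of the distal tubule and collecting duct, segments that also express Krt8, 1 was lower in HS than in NC (Tmem213, log2 fold change -0.72, edgeR adjusted p = 0.0163) and none was higher, against 11% of all genes. Their median log2 fold change was -0.02, and 6 of the 13 were positive. Calb1, a distal tubule gene on another list, rose by 1.32 in HS. The part of either list in the Krt8 result was not tested. In CAL Krt8 averaged 224 ± 30.4 CPM (n = 6), and all 6 libraries lay above the HS mean. The log2 fold change of CAL over HS was 0.35 (SE 0.14, 95% interval 0.07 to 0.63), which missed the threshold (edgeR adjusted p = 0.209), and that of CAL over NC was -0.09 (SE 0.12, adjusted p = 0.812).

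Krt18, the partner of Krt8, was counted at a few reads per cortex library and did not pass the filter. It had 5 to 24 reads in CAL with a median of 7.5, against 4, 5, 3 and 13 reads in HS and 12, 6, 8, 7 and 10 reads in NC. Summed over libraries its plain level was 11.9 CPM in CAL (95% interval 9.19 to 15.2), 10.9 CPM in HS (7.05 to 16.1) and 11.7 CPM in NC (8.47 to 15.8), so the groups were not separable. Without the filter, the log2 fold change of HS over NC was -0.21 (SE 0.44, 95% interval -1.08 to 0.66, edgeR adjusted p = 0.877). That interval contains the Krt8 change of -0.44. The keratin pair was also compared library by library, as the only such relation computed. After removing group means, Krt8 and Krt18 log2 levels in the 15 cortex libraries gave Pearson r = -0.07 (two-sided permutation p = 0.809) and Spearman rho = -0.27 (permutation p = 0.364). Without the 2 libraries farthest from the Krt8 median, HS replicates 2 and 4, r was -0.10 (permutation p = 0.722). A single library moved r most: it was -0.53 without NC replicate 2 (permutation p = 0.118) and 0.22 without CAL replicate 3 (permutation p = 0.464). No relation was detected at this depth.

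The start regions of the pair are shown because the genes encode partners of one filament and lie near each other on the same chromosome. The sequences are the 250 bases before each annotated start in the RefSeq GRCr8 rat assembly, a newer build than the Rnor_6.0 of the counts, given 5′ to 3′ on the strand of the gene. Capitals mark letters of the TATA box form, TATAAA, in Krt8 and of the GC box form, GGGCGG, in Krt18. The Krt8 window is chr7:135010340-135010589 on the minus strand, and the Krt18 window chr7:135035918-135036167 on the plus strand.
Krt8: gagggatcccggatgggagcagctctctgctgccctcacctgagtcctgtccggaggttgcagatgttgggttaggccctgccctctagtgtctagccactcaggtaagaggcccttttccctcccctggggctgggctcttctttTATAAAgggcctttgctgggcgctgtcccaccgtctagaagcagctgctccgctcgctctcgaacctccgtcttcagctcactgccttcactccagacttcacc
Krt18: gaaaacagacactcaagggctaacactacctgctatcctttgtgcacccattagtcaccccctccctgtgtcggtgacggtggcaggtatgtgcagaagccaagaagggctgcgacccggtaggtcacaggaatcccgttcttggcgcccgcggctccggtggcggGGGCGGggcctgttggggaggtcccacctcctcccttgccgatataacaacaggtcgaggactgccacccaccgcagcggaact
TATAAA lies 104 to 99 bases before the Krt8 start, with a second match on the other strand that overlaps it at 106 to 101 bases, and GGGCGG lies 84 to 79 bases before the Krt18 start. Searched on both strands, TATAAA was present in 12.9% and GGGCGG in 30.5% of the 33469 windows of the same length in the table. GGGCGG is not among the letters of the Krt8 window, nor TATAAA among those of the Krt18 window. A match is a description of letters and not a measured binding site. Whether either works as a box at its position was not tested.

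Spp1, Lgals3, Itgb6 and Vcam1 act at the interface of the tubule cell with matrix and leukocytes. Spp1 encodes osteopontin, a secreted phosphoprotein that binds integrins and CD44. Of the 6 members tested, it varied most between cortex libraries of one group. Its level was 143 to 462 CPM in CAL with a median of 185 CPM, against 77.6, 203, 449 and 278 CPM in HS and 529, 143, 364, 169.5 and 360.3 CPM in NC. The groups overlapped almost fully, with the lowest library of all in HS and the highest in NC. The edgeR estimate of its between-library variation was 39.5%, above that of 99.1% of the 7524 tested genes, whose median was 15.9%. Spp1 averaged 247 ± 133 CPM in CAL (n = 6), 252 ± 155 CPM in HS (n = 4) and 313 ± 159 CPM in NC (n = 5). The log2 fold change of HS over NC was -0.35 (SE 0.39, 95% interval -1.14 to 0.45, edgeR adjusted p = 0.592), that of CAL over HS was -0.01 (SE 0.38, 95% interval -0.79 to 0.76), and that of CAL over NC was -0.36 (SE 0.34, adjusted p = 0.698).

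Lgals3 encodes galectin-3, a lectin of macrophages and of injured and collecting duct epithelium. Its level was 24.7 to 42.6 CPM in CAL with a median of 27.9 CPM, against 13.3, 15.3, 35.1 and 13.1 CPM in HS and 35.4, 22.9, 19.8, 27.6 and 30.02 CPM in NC. HS replicates 1, 2 and 4 lay below every CAL and NC library, while HS replicate 3, the shallowest cortex library with 10 Lgals3 reads, lay among them. Lgals3 averaged 30.8 ± 7.20 CPM in CAL (n = 6), 19.2 ± 10.6 CPM in HS (n = 4) and 27.2 ± 6.10 CPM in NC (n = 5). For CAL over HS the log2 fold change was 0.84 (SE 0.30, 95% interval 0.23 to 1.44), with all 6 CAL libraries above the HS mean, and it missed the threshold (edgeR unadjusted p = 0.00877, adjusted p = 0.163). For HS over NC it was -0.65 (SE 0.31, 95% interval -1.29 to -0.01, adjusted p = 0.172). Without HS replicate 3 these were 1.14 (adjusted p = 0.0856) and -0.95 (adjusted p = 0.0547), still short of the threshold. For CAL over NC the log2 fold change was 0.18 (SE 0.24, adjusted p = 0.798). Macrophage markers summed to between 1902 and 2456 CPM in CAL, 2054 and 2537 CPM in HS, and 1878 and 3527 CPM in NC, and none of the 9 tested passed between HS and NC, where Tyrobp (-0.66, edgeR adjusted p = 0.0638) and Fcer1g (-0.48, adjusted p = 0.207) were nearest in log2 fold change and p. Cd163 was at 0 in HS.

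Itgb6 encodes the beta 6 integrin subunit, an epithelial receptor that activates latent TGF-beta, and was the 1 member with a positive log2 fold change of HS over NC. Its level was 47.9 to 74.1 CPM in CAL with a median of 53.1 CPM, against 59.8, 73.2, 56.1 and 80.0 CPM in HS and 49.6, 52.7, 66.6, 43.4 and 43.4 CPM in NC. All 4 HS libraries lay above the NC mean of 51.1 ± 9.55 CPM, while NC replicate 3 lay inside the HS range. The log2 fold change was 0.43 (SE 0.19, 95% interval 0.05 to 0.81) and missed the threshold (edgeR adjusted p = 0.130). For CAL over HS it was -0.29 (SE 0.18, adjusted p = 0.429), and for CAL over NC 0.14 (SE 0.17, adjusted p = 0.772). The edgeR estimate of its between-library variation, 11.8%, was the lowest of the 6 tested members, followed by 13.0% for Krt8. Vcam1, an endothelial and injured-tubule adhesion receptor for leukocyte integrins, had 3 to 16 reads in CAL with a median of 4.5, against 2, 6, 4 and 13 reads in HS and 6, 12, 7, 4 and 5 reads in NC. Summed over libraries this was 7.64 plain CPM in CAL (95% interval 5.49 to 10.4), 10.9 CPM in HS (7.05 to 16.1) and 9.25 CPM in NC (6.41 to 12.9). These intervals overlapped, and the fit without the filter gave a log2 fold change of HS over NC of 0.19 (SE 0.47, edgeR adjusted p = 0.909). For CAL over HS that fit gave -0.46 for Vcam1 (SE 0.46), 0.17 for Krt18 (SE 0.42), -0.10 for Lcn2 (SE 0.78) and -0.50 for Havcr1 (SE 0.85), and for CAL over NC -0.27 for Vcam1 (SE 0.42), -0.04 for Krt18 (SE 0.37), -0.46 for Lcn2 (SE 0.63) and 0.04 for Havcr1 (SE 0.89), with no edgeR adjusted p below 0.757.

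**Figure D1:**
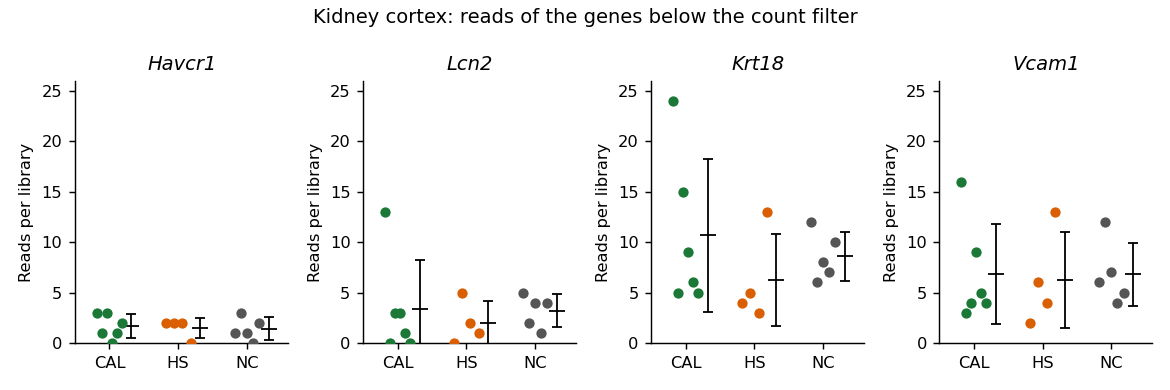
Reads per cortex library (y axis, raw counts) of Havcr1, Lcn2, Krt18 and Vcam1 in CAL (6 libraries), HS (4) and NC (5), 1 point per library. Havcr1 stayed between 0 and 3 reads in all 15 libraries, and the highest Lcn2, Krt18 and Vcam1 counts came from CAL replicate 1, which had 2265164 counts in all.

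Clu and Sox9 are the chaperone and the transcription factor of the set. Clu encodes clusterin, a secreted chaperone found in damaged tubules. Its level was 88.4 to 356 CPM in CAL with a median of 193 CPM, against 126, 221, 245 and 147 CPM in HS and 123, 228.5, 263, 189 and 153 CPM in NC. The means were 206 ± 89.0 CPM in CAL, 185 ± 57.3 CPM in HS and 191 ± 56.0 CPM in NC, so they differed by far less than the spread between libraries. For HS over NC the log2 fold change was -0.08 (SE 0.27, 95% interval -0.64 to 0.49, edgeR adjusted p = 0.886), for CAL over HS 0.22 (SE 0.26, adjusted p = 0.727) and for CAL over NC 0.14 (SE 0.24, adjusted p = 0.853). The lowest and the highest library of the 15 were both CAL, and the between-library variation of 27.1% was above that of 93.8% of tested genes.

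Sox9 is required in mouse for tubule regeneration after acute injury. Its level was 41.6 to 91.7 CPM in CAL with a median of 58.2 CPM, against 51.0, 53.4, 45.6 and 51.3 CPM in HS and 41.1, 44.2, 106, 82.8 and 70.1 CPM in NC. The 4 HS libraries lay close together inside the wider ranges of CAL and NC. Sox9 averaged 60.7 ± 16.95 CPM in CAL, 50.3 ± 3.34 CPM in HS and 68.9 ± 27.3 CPM in NC. Its log2 fold change was -0.39 for HS over NC (SE 0.26, edgeR adjusted p = 0.348), 0.26 for CAL over HS (SE 0.25, adjusted p = 0.657) and -0.12 for CAL over NC (SE 0.22, adjusted p = 0.862). NC replicate 3 carried much of the HS and NC difference: without it the log2 fold change was -0.18 (adjusted p = 0.703).

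**Figure D2:**
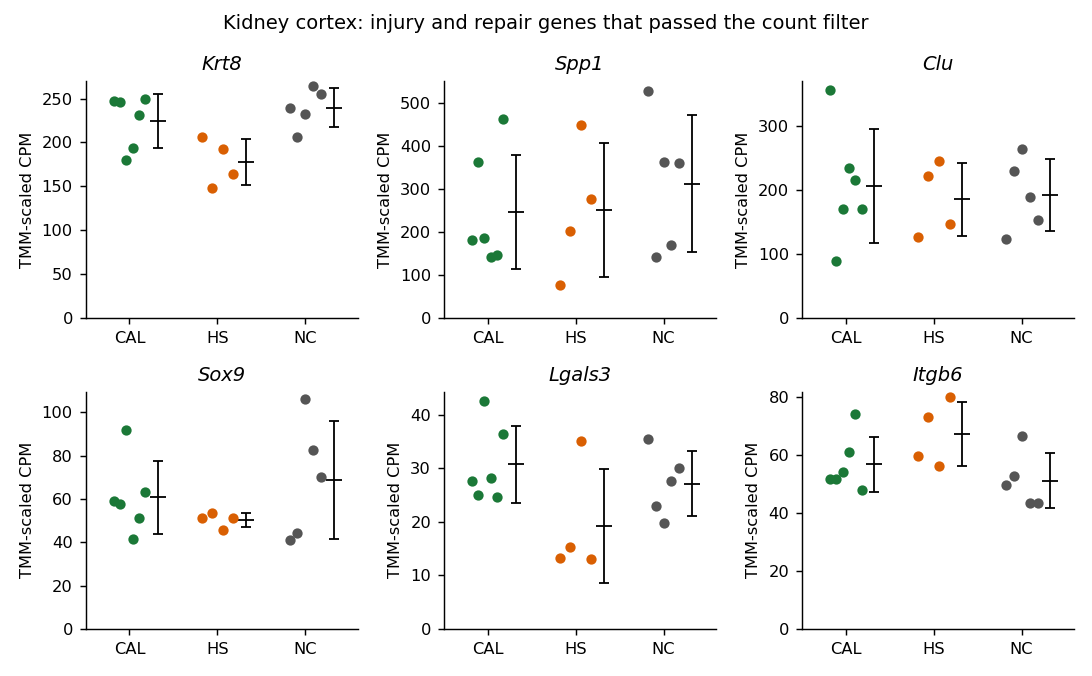
Levels in cortex (y axis, TMM-scaled CPM) of the 6 members that passed the filter in CAL, HS and NC, with 1 point per library and bars for mean and SD. HS points of Krt8 lie between 148 and 206 CPM, below all NC points, and 3 of the 4 HS points of Lgals3 lie at 13.1 to 15.3 CPM, while the groups overlap for Spp1, Clu, Sox9 and Itgb6.

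**Figure D3:**
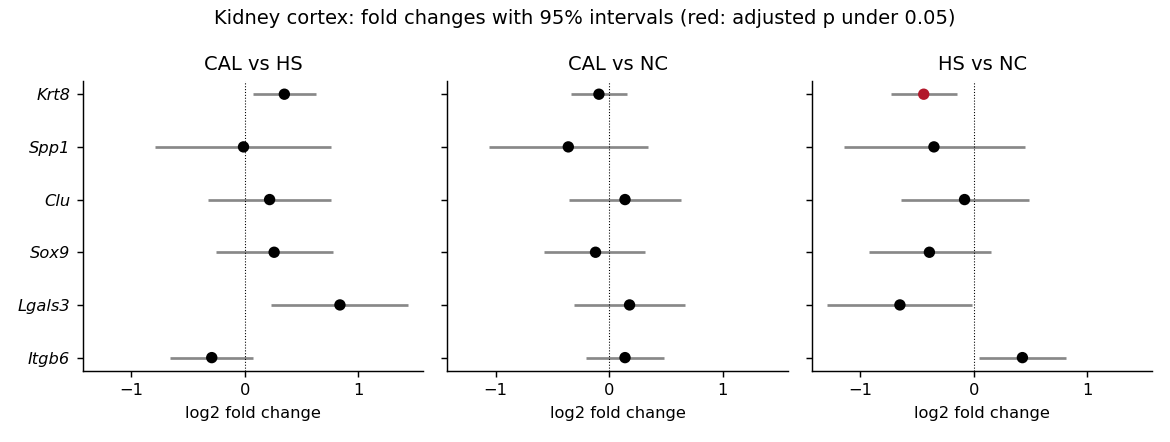
Log2 fold changes in cortex (x axis) with 95% intervals for the 6 tested members in CAL over HS, CAL over NC and HS over NC, red where the edgeR adjusted p was under 0.05. Krt8 in HS over NC, at -0.44, is the one red point, and the intervals of Spp1 are the widest, from -1.14 to 0.45 in HS over NC.

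The genes nearest to each tested member in profile were compared across the 15 cortex libraries. Likeness was measured as the root-mean-square difference between standardised log2 levels, for which the median over the other 7523 genes was 1.36 or 1.37. Nearest to Krt8 were Mroh1 (0.52), Coq8a (0.53) and Sardh (0.53), and nearest to Spp1 were Fam131c (0.46), Tmem184a (0.48) and Agap3 (0.48). Nearest to Clu were RGD1305347 (0.65), Cpped1 (0.70) and Pecr (0.75), and nearest to Lgals3 were Tarbp2 (0.51), Rab4b (0.52) and Lrrc75b (0.58). Nearest to Sox9 were Septin9 (0.55), Wwc1 (0.67) and Fgd3 (0.68), and nearest to Itgb6 were Gpbp1 (0.55), Riok3 (0.55) and Mtmr10 (0.58). No member was among the 3 nearest genes of another member. These likenesses are descriptions, with no test.

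Other genes tied to tubule injury were compared between HS and NC, where 11% of all tested genes passed. Of an injured tubule list of 36 genes, 17 were tested, 1 was higher and 1 lower, with a median log2 fold change of -0.11. Prom1, a membrane glycoprotein of scattered tubule cells, averaged 120 ± 18.7 CPM in HS and 71.6 ± 6.50 CPM in NC, and rose by 0.76 on the log2 scale (SE 0.17, edgeR adjusted p = 0.00836). Krt7, a simple-epithelium keratin of the collecting duct, averaged 375 ± 29.1 CPM in HS and 483 ± 42.4 CPM in NC, and fell by 0.37 (SE 0.12, adjusted p = 0.0390, lost in 7 of the 15 fits that left out 1 library and in 4 of 8 other alternatives, up to 0.0898). Krt7 is thus a second keratin that fell beside Krt8. In CAL it averaged 381 ± 36.6 CPM, and its log2 fold change of CAL over NC was -0.35 (SE 0.10, adjusted p = 0.186). Among genes listed as binding partners of the members (integrins, CD44, TGF-beta, lipocalin and clusterin receptors), 9 of 29 were tested and Krt7, which that list also holds, was the 1 that passed.

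Of the 11 tested urine biomarker genes, 3 rose in HS and none fell, where 7.35% of all tested genes rose and 3.69% fell. The median log2 fold change of the 11 tested genes, from a list of 16, was -0.05. Cst3, the protease inhibitor cystatin C, averaged 1407 ± 125 CPM in HS and 886 ± 164 CPM in NC, and rose by 0.67 (SE 0.13, edgeR adjusted p = 0.00270). Calb1, the calcium-binding protein calbindin-D28k of distal tubules, averaged 1394 ± 343 CPM in HS and 558 ± 82.7 CPM in NC, and rose by 1.32 (SE 0.28, adjusted p = 0.00534). B2m, the light chain of MHC class I, averaged 1470 ± 193 CPM in HS and 998 ± 203 CPM in NC, and rose by 0.55 (SE 0.14, adjusted p = 0.0127). Cst3 and B2m are known as filtered plasma proteins in urine, so their tissue RNA is a separate measurement from their use as biomarkers. Prom1, Cst3 and Calb1 kept their call in all 15 fits that left out 1 library, and B2m in 14.

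The Sox9, Notch and Hippo list and the NF-kB list held 2 further calls. Of 23 Sox9, Notch and Hippo pathway genes, 10 were tested and 1 rose, with a median of -0.16: Lats1, a Hippo kinase that inhibits YAP, averaged 24.6 ± 3.10 CPM in HS and 11.8 ± 2.07 CPM in NC, a log2 fold change of 0.99 (SE 0.31, edgeR adjusted p = 0.0397, lost in 8 of 15 fits that left out 1 library and in 2 of 6 other alternatives). Of 24 NF-kB pathway genes, 11 were tested and 1 rose, with a median of -0.13: Chuk, which encodes the kinase IKK-alpha, averaged 119 ± 29.7 CPM in HS and 69.7 ± 16.3 CPM in NC, a log2 fold change of 0.78 (SE 0.21, adjusted p = 0.0188, lost in 2 of 15 and in 1 of 8 others, at 0.0958). The urine list had 3 calls among 11 genes tested, and the other 4 lists had 1 or 2 calls among 9 to 17 genes tested, against 11% of all genes. Between CAL and HS none of the 5 lists held a gene past the threshold. The 2 genes with the smallest p of each list, with their log2 fold change of CAL over HS and edgeR adjusted p, were Vim (-0.43, 0.322) and Il34 (0.40, 0.375) for the injured tubule, B2m (-0.38, 0.150) and Cst3 (-0.26, 0.287) for urine biomarkers, and Vldlr (-0.74, 0.193) and Plec (0.47, 0.420) for binding partners. For the Sox9, Notch and Hippo list they were Lats1 (-0.76, 0.198) and Lats2 (-0.37, 0.368), and for NF-kB Ikbkb (0.61, 0.283) and Chuk (-0.38, 0.327). None passed between CAL and NC either. There the nearest genes were Prom1 (0.65, 0.108), Krt7 (-0.35, 0.186), Cst3 (0.40, 0.168), Calb1 (0.89, 0.182), Slc22a17 (-0.82, 0.279), Lgr4 (0.50, 0.388), Ccn2 (-0.35, 0.532), Chuk (0.40, 0.398) and Nfkbia (-0.29, 0.587), given as log2 fold change of CAL over NC and edgeR adjusted p.

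Control cortex and control colon differed in many genes, members and others alike. For this contrast NC cortex was set against NC colon in a fit to all 31 libraries with scaling across both tissues, in which 58.8% of 9128 genes passed and 8 members were tested. Of these members 3 were higher and 3 lower in cortex, where 28.4% of all genes were higher and 30.4% lower. The NC libraries of the tissues did not overlap for 5 of the 8 members, as for 47.9% of all genes. With only 8 members tested, these counts do not set the members apart from other genes. Spp1 had 152.5 to 545 CPM in NC cortex with a median of 368 CPM, against 0 to 5.99 CPM in NC colon with a median of 2.59 CPM, and its log2 fold change of cortex over colon was 6.82 (SE 0.64, edgeR adjusted p = 2.36e-11). Itgb6 had 44.2 to 67.4 CPM in NC cortex, against 3.53 to 17.96 CPM in NC colon, a log2 fold change of 2.40 (SE 0.41, adjusted p = 5.67e-06). All 5 NC cortex libraries lay above all NC colon libraries for both genes, and no colon library of any group held more than 4 reads of Spp1.

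Krt8, Krt18 and Lgals3, which colon surface epithelium expresses strongly, lay the other way. Krt8 had 221 to 269 CPM in NC cortex, against 6003 to 7095 CPM in NC colon (log2 fold change -4.70, SE 0.23, edgeR adjusted p = 8.3e-19). Krt18 had 5.45 to 17.5 CPM in NC cortex, against 262 to 355 CPM in NC colon (-4.47, SE 0.27, adjusted p = 2.88e-16). Lgals3 had 20.05 to 36.5 CPM in NC cortex, against 3310 to 4923 CPM in NC colon (-7.11, SE 0.32, adjusted p = 1.67e-19). For these 3 genes and Spp1 the ranges of the tissues did not overlap in any group.

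Sox9, Vcam1 and Clu differed less between the tissues. Sox9 had 42.3 to 108 CPM in NC cortex, against 23.3 to 54.1 CPM in NC colon, with overlapping libraries and a log2 fold change of 0.78 (SE 0.28, edgeR adjusted p = 0.0168). That call was lost without NC cortex replicate 3 (0.107), NC cortex replicate 4 (0.0535) or NC colon replicate 3 (0.064). The log2 fold changes of Vcam1 (-0.55, SE 0.47, adjusted p = 0.321) and Clu (0.25, SE 0.69, adjusted p = 0.765) missed the threshold. Havcr1 and Lcn2 did not pass the filter, and without it their log2 fold changes of NC cortex over NC colon were -0.41 (SE 1.09, adjusted p = 0.819) for Havcr1 and 1.74 (SE 0.93, adjusted p = 0.141) for Lcn2.

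**Figure D4:**
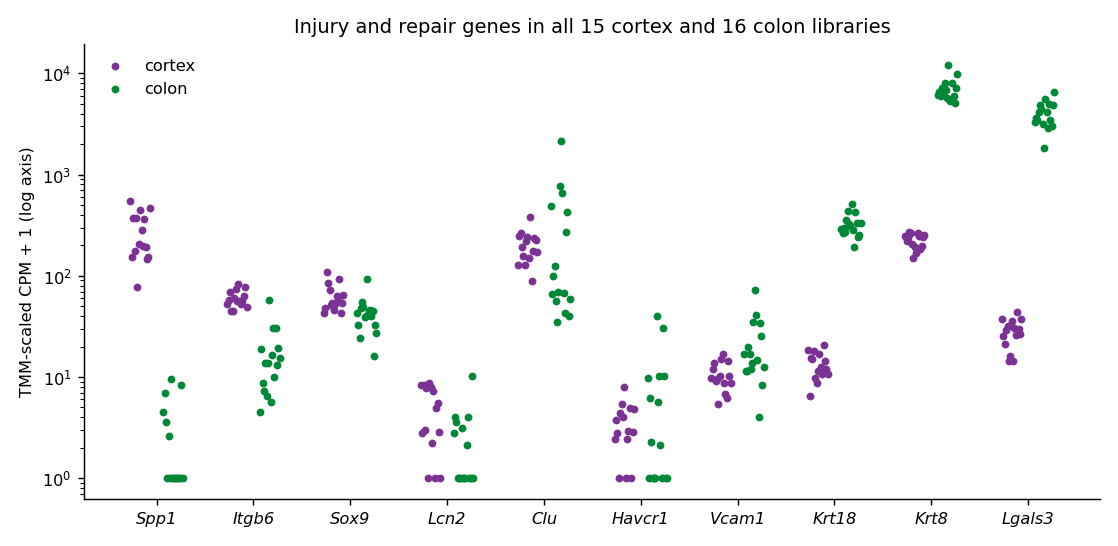
Levels of the 10 members in cortex and colon libraries (log axis, CPM + 1, scaled across both tissues), 1 point per library. Krt8, Krt18 and Lgals3 in colon and Spp1 in cortex lie apart from the other tissue in all 31 libraries, with colon Krt8 from 5052 to 12204 CPM against 148 to 269 CPM in cortex.

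Within the colon, HS replicates 3 and 4 stood apart in macrophage markers, and HS replicates 3, 4 and 5 in T and B cell markers. Macrophage markers, a list that includes the class II chain Cd74, summed to 2293 to 4692 CPM in CAL, to 18277 and 15131 CPM in HS replicates 3 and 4, to 2020, 2716 and 6935 CPM in the other HS libraries, and to 2788 to 6691 CPM in NC. Cd74 made up much of these macrophage sums. It averaged 1606 ± 689 CPM in CAL, 6234 ± 6105 CPM in HS and 1855 ± 1398 CPM in NC. T and B cell markers summed to 1847 to 2918 CPM in CAL, to 1921, 2083, 5761, 6005 and 5008 CPM in HS, and to 1122 to 3509 CPM in NC. Colonocyte markers summed to 46557 to 79003 CPM in CAL, 19521 to 60804 CPM in HS and 50655 to 59240 CPM in NC, with the lowest sum in HS replicate 3.

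Clu and Vcam1 were high in the same colon libraries. Clu had 40.6 to 432 CPM in CAL with a median of 64.7 CPM, against 35.2, 71.8, 824, 2316 and 705 CPM in HS and 507, 69.1, 105, 129 and 58.4 CPM in NC. Replicates 3, 4 and 5 of HS lay above all other colon libraries, and replicates 1 and 2 lay below the NC median of 105 CPM. Vcam1 had 3.11 to 34.7 CPM in CAL with a median of 13.1 CPM, against 11.3, 13.5, 35.9, 77.0 and 43.1 CPM in HS and 16.6, 10.999, 11.03, 19.7 and 16.7 CPM in NC, with the same 3 HS libraries on top. The log2 fold changes of HS over NC were 2.18 for Clu (SE 0.88, 95% interval 0.36 to 4.00, edgeR adjusted p = 0.523) and 1.18 for Vcam1 (SE 0.52, adjusted p = 0.548). Those of CAL over HS were -2.34 for Clu (SE 0.83, adjusted p = 0.345) and -1.13 for Vcam1 (SE 0.50, adjusted p = 0.432). Without HS replicates 3 and 4, Clu gave 0.56 for HS over NC (adjusted p = 0.971) and -0.71 for CAL over HS (adjusted p = 0.944), and Vcam1 gave 0.42 (0.959) and -0.37 (0.972). The 2 libraries left out hold the 2 highest Clu levels, while HS replicate 5, at 705 CPM, was kept. The part of the leukocyte markers in these values was not tested.

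**Figure D5:**
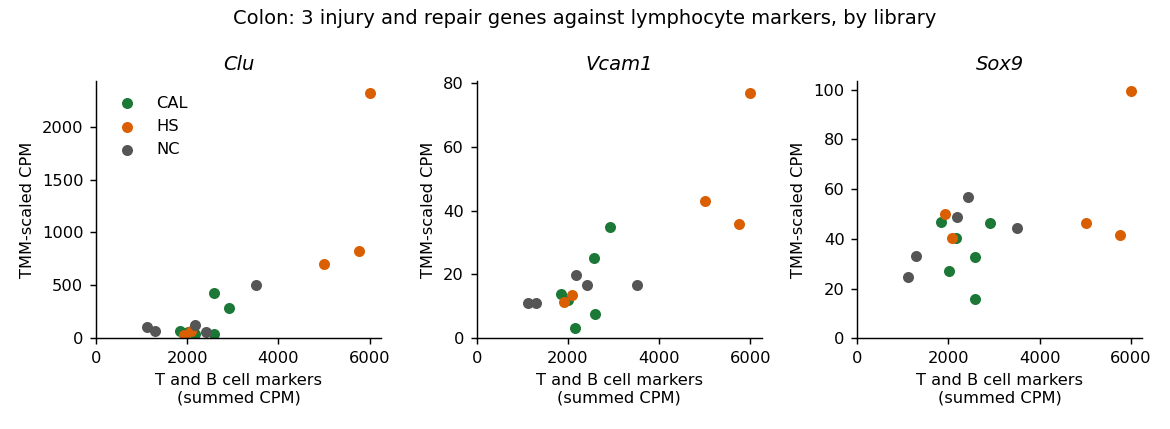
Levels of Clu, Vcam1 and Sox9 in each colon library (y axis, TMM-scaled CPM) against the summed level of 12 T and B cell markers in the same library (x axis, CPM), with CAL, HS and NC in separate colours. The 3 HS libraries with marker sums of 5008 to 6005 CPM hold the 3 highest Clu and Vcam1 levels, while for Sox9 only HS replicate 4, at 99.3 CPM, lies above the other libraries.

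No member passed the test in any colon comparison. Of all 7217 tested colon genes 0% passed between HS and NC, 0.0139% between CAL and HS, and 0% between CAL and NC, where edgeR gave 614, 758 and 278 genes at an unadjusted p under 0.05. DESeq2 called 19 genes between HS and NC, 11 between CAL and HS and 0 between CAL and NC. Sox9, which the stem and transit cells of colon crypts express, had 15.6 to 46.7 CPM in CAL with a median of 36.7 CPM, against 49.9, 40.4, 41.5, 99.3 and 46.4 CPM in HS and 44.3, 33.0, 24.8, 48.7 and 56.8 CPM in NC. Its log2 fold change of CAL over HS was -0.68 (SE 0.32, edgeR adjusted p = 0.460). The groups overlapped for the epithelial members. Krt8 averaged 7204 ± 1928 CPM in CAL, 8081 ± 2978 CPM in HS and 6736 ± 436 CPM in NC. Krt18 averaged 307 ± 88.5 CPM in CAL, 393 ± 102 CPM in HS and 310 ± 38.2 CPM in NC. Lgals3 averaged 4463 ± 1500 CPM in CAL, 4047 ± 1504 CPM in HS and 4084 ± 680 CPM in NC, so the means differed by less than the spread between libraries. The log2 fold changes of HS over NC were 0.40 for Sox9, 0.26 for Krt8, 0.35 for Krt18 and -0.01 for Lgals3, those of CAL over HS were -0.17 for Krt8, -0.37 for Krt18 and 0.14 for Lgals3, and those of CAL over NC were 0.10 for Krt8, -0.02 for Krt18, 0.05 for Vcam1, -0.28 for Sox9, 0.13 for Lgals3 and -0.16 for Clu. Their SEs were 0.22 to 0.83, and no edgeR adjusted p among them was below 0.574. The remaining 4 members did not pass the filter in colon. Havcr1 had 0 to 15 reads per library, Itgb6 2 to 26, Lcn2 0 to 5 and Spp1 0 to 4.

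The log2 fold change of HS over NC for Krt8 was -0.44 in cortex and 0.26 in colon (SE 0.26). The 95% interval in colon, -0.28 to 0.8, spanned both signs. The difference of cortex minus colon was tested over the 5992 genes that passed the filter in both. The difference was -0.72 for Krt8 (SE 0.30, 95% interval -1.33 to -0.11, edgeR adjusted p = 0.233), -2.27 for Clu (95% interval -4.29 to -0.25, adjusted p = 0.263), -0.83 for Sox9 (SE 0.42, adjusted p = 0.344) and -0.65 for Lgals3 (SE 0.45, adjusted p = 0.496). None of the 4 passed, where 0.250% of all genes did. For CAL over HS the differences were 2.53 for Clu (SE 0.96, adjusted p = 0.352), 0.95 for Sox9 (SE 0.42, adjusted p = 0.409), 0.68 for Lgals3 (SE 0.43, adjusted p = 0.591) and 0.51 for Krt8 (SE 0.29, adjusted p = 0.539). Again none passed, nor did any other gene (0%, with 644 at an unadjusted p under 0.05 and 15 called by DESeq2). The other 6 members did not pass the filter in both tissues. Without it their differences in HS over NC were -0.97 for Vcam1 (SE 0.69), -0.56 for Krt18 (SE 0.43), -0.42 for Itgb6 (SE 0.58), 0.29 for Spp1 (SE 1.16), 0.96 for Lcn2 (SE 1.41) and -1.17 for Havcr1 (SE 1.66), with no edgeR adjusted p below 0.620. In CAL over HS they were 0.65 for Vcam1 (SE 0.67), 0.54 for Krt18 (SE 0.41), -0.39 for Itgb6 (SE 0.53), 0.26 for Spp1 (SE 1.48), -2.23 for Lcn2 (SE 1.47) and 0.27 for Havcr1 (SE 1.65), with none below 0.695. A response of these genes particular to one tissue was therefore not shown.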

How the data were processed

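Per the labels' protocols, TRIzol RNA of rat kidney cortex and colon was turned into cDNA libraries by tagmentation, which keeps no strand information. Per the submitters' processing notes, the tools were FastQC 0.11.9, Trimmomatic 0.39, HISAT2 2.1.0 and featureCounts 1.6.5 with the Rnor_6.0 build. The annotation and strand setting are not given in the sources used here, so reads of overlapping or antisense genes cannot be told apart. The table the authors deposited holds raw counts, as whole reads for each gene symbol without normalisation. Of 20207 symbols, 2839 had no count in any library, and no 2 libraries held identical values.

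Counts were tested with edgeR 4.0.16 (quasi-likelihood, TMM scaling, filter with minimum count 10 and minimum total 15) under R 4.3.3, with 1 fit for the groups of each tissue. Cortex against colon, and the difference between tissues, were fitted to all 31 libraries. P-values were adjusted over all genes tested. Each SE comes from the fold change and its F value. The Krt8 and Krt18 relation used log2 CPM with a prior count of 2 and 100000 permutations within groups. Intervals of summed reads are exact Poisson 95% intervals, and a count of 0 allows 1.32 to 10.4 CPM in cortex libraries and 3.27 to 11.2 CPM in colon libraries, with 3 counts as the limit; both cover counting error only.

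The 10 genes, the 20 lists (5 of pathways, 15 of cell type markers) and the tests were chosen with earlier results of these data known. All 10 members are named in every comparison, those below the filter by their reads or by a fit without it. Of each other list the rule takes the genes past the threshold, at most 6 by smallest p, or else the 2 with the smallest p. The text names them in cortex for the pathway lists and, between HS and NC, for the marker lists set beside a tested member. Genes of the other lists, and of any list in colon except Cd74, are not named. For each tested cortex member it names the 3 genes of most similar profile. Alternatives were DESeq2 1.42.0, edgeR with DESeq2 size factors, no low-count filter, 1 CPM in 4 libraries, the compared groups alone, robust empirical Bayes, thinning, the replicate block, leaving out each library, and leaving out HS colon replicates 3 and 4. The same alternatives for genes of the pathway lists were chosen after seeing the data. Start regions matched 7 of the 10 members in the RefSeq GRCr8 table.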

Additional observations from a re-analysis of the deposited data

Results flagged for a closer look

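Of 60 sets of libraries examined (10 genes in 6 groups), 11 held 1 library far from the others of its group by Dixon's test. Its limit flags about 1 of 20 sets by chance only where values are normally distributed. Low read counts are not, and 1 library with reads among libraries at 0 is always flagged. The 11 of 60 can therefore not be set against that rate. In cortex the flagged libraries were Lgals3 in HS replicate 3, at 35.1 CPM from 10 reads and above the other HS libraries, and Krt18 in NC replicate 2, at 5.10 CPM from 6 reads and below the other NC libraries.

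In colon, Clu stood at 507 CPM in NC replicate 1, which also had the highest macrophage and T and B cell marker sums of the NC colon libraries. Havcr1 stood at 41.5 CPM (15 reads) in HS replicate 3 and at 30.9 CPM (8 reads) in CAL replicate 3. Itgb6 stood at 60.8 CPM (22 reads) in HS replicate 3. That library also had the highest proximal tubule marker sum of the colon, 2319 CPM, and the lowest thick ascending limb marker sum, 8.29 CPM. The part of either list in these values was not tested. Sox9 stood at 99.3 CPM in HS replicate 4. The remaining 4 rest on 5 or fewer reads each: Lcn2 at 9.67 CPM in CAL replicate 5 and at 2.24 CPM in HS replicate 2, and Spp1 at 7.74 CPM in CAL replicate 5 and at 8.98 CPM in HS replicate 2.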

How the results depend on the processing

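Over 52 member results and 1483 values under the alternatives, 1425 stayed on the same side of the threshold with the same sign, 16 lost a call, 0 gained one and 42 changed sign, each a value that had not passed. The count of members past the threshold between HS and NC cortex was 1, and 0 with no low-count filter, with the 1 CPM filter, after thinning and with the replicate block (0 to 1 with 1 library left out); the block gave Krt8 an adjusted p of 0.067. The labels do not say whether replicate numbers pair the libraries, and the main fits did not pair them. Deviations of same-numbered cortex libraries correlated between -0.16 and 0.07, with 0 of 13 pairs over 0.1. In colon they correlated between -0.23 and 0.25 (4 of 15), and across tissues between -0.03 and 0.17 (1 of 15). Most correlations across tissues were positive, and whether the tissues share animals is not known. The block moved the calls between CAL and HS cortex from 57 to 22, CAL and NC cortex from 0 to 42, CAL and HS colon from 1 to 0 and the tissue difference of HS and NC from 15 to 0.

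Other counts over all genes moved as well. HS against NC cortex (831) gave 394 after thinning and 324 to 961 with 1 library left out. CAL against HS cortex (57) gave 96 with DESeq2, 128 unfiltered, 30 with the 2 groups alone, 17 after thinning and 2 to 80 with 1 library left out. CAL against NC cortex (0) gave 23 with DESeq2, 83 unfiltered, 7 with the 1 CPM filter, 2 with robust empirical Bayes and 0 to 40. HS against NC colon (0) gave 19 with DESeq2, 59 unfiltered, 1 with robust empirical Bayes, 1 without HS replicates 3 and 4, and 0 to 1. CAL against HS colon (1) gave 11 with DESeq2, 66 unfiltered, 5 with the 1 CPM filter, 2 with robust empirical Bayes, 0 without those replicates, and 0 to 14. CAL against NC colon (0) gave 1 unfiltered and 2 with the groups alone. The tissue difference of HS and NC (15) gave 54 with DESeq2, 6 with the groups alone, 0 unfiltered, with the 1 CPM filter, after thinning and without those replicates, and 0 to 138. That of CAL and HS (0) gave 15 with DESeq2 and 0 to 42.

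Signs changed for Spp1 in CAL against HS cortex (0.002 unfiltered and with the groups alone), Sox9 in CAL against NC cortex (0.02 thinned), Lgals3 in HS against NC colon (0.01 thinned, 0.01 without HS replicates 3 and 4), Krt8 in CAL against HS colon (0.03 without them) and, with the block, Krt8 (-0.02), Vcam1 (-0.03) and Lgals3 (-0.03) in CAL against NC colon. The Krt8 and Krt18 r was 0.12 around the mean of all libraries. With 1 library left out, ranges across 0 were, in cortex, Clu -0.21 to 0.06 (HS against NC), -0.04 to 0.36 (CAL against HS) and -0.12 to 0.29 (CAL against NC), Spp1 -0.29 to 0.34 (CAL against HS), Sox9 -0.28 to 0.09 (CAL against NC), and r -0.53 to 0.22. In colon they were Lgals3 -0.20 to 0.16 (HS against NC), -0.03 to 0.33 (CAL against HS) and -0.03 to 0.22 (CAL against NC), Krt8 -0.29 to 0.08 (CAL against HS) and -0.03 to 0.17 (CAL against NC), and, in CAL against NC, Krt18 -0.15 to 0.08, Vcam1 -0.21 to 0.23 and Clu -0.86 to 0.78. The cause was not tested. Depth limits Havcr1, Lcn2, Krt18 and Vcam1 in cortex, which rest on a few reads per library.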
